A study of Homo sapiens with 12 samples.

Results

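KANK1, STARD13, ENPP2, CD1A and COL15A1 are 5 genes whose RNA signal lay below a floor of 4 on the log2 scale in SEM-K2 leukaemia cells given vehicle and in every RS4:11 sample, and above it in SEM-K2 cells given obatoclax, with the exception of COL15A1 on 1 of the 2 EC50 arrays. The members were selected on exactly these measured values. Their differences between SEM-K2 treatments and between the lines are therefore descriptions, and test results printed for them are no independent support. All probe sets that the array annotation assigned to 1 of these symbols alone were taken. They make up 9 of 41091 probe sets with a single gene symbol, and the genes are 5 of 19775 genes that such probe sets measure. A probe set is a group of short array probes read out as 1 value for a transcript, and the floor is a working threshold, so a value below it does not show that a transcript was absent.

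SEM-K2 and RS4:11 are human cell lines of acute lymphoblastic leukaemia, both labelled as carrying the MLL-AF4 fusion. Each line was exposed for 6 h to vehicle, to obatoclax at its 72 h EC50, or to obatoclax at 3 times that EC50 (3xEC50), with 2 biologic replicates per condition and 12 arrays in all. Obatoclax is a small molecule made to bind the antiapoptotic proteins of the BCL2 family, and an EC50 is the concentration that gives an effect midway to the maximum. The sources used here do not give the concentrations. The labels call the replicates biologic but do not say whether they were separate cultures, so a p-value covers only the spread among these samples, part of which may be technical.

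The 5 genes belong to different pathways. KANK1 encodes a scaffold protein of the cell cortex that binds talin at adhesion sites and recruits the microtubule-capturing machinery beside them. STARD13, also known as DLC2, encodes a GTPase-activating protein that carries a lipid-binding START domain. ENPP2 encodes autotaxin, a secreted lysophospholipase D that makes lysophosphatidic acid, the ligand of a family of G protein-coupled receptors. CD1A encodes a cell surface molecule that presents lipid antigens to T cells and is best known from cortical thymocytes and Langerhans cells. COL15A1 encodes the α chain of collagen XV, a proteoglycan that lies at the edge of basement membranes.

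KANK1 had the largest difference from vehicle of the 5 genes, on 1 of its 3 probe sets. Probe set 213005_s_at read 2.54 and 2.54 on the log2 scale in SEM-K2 with vehicle, 6.61 and 6.55 at EC50, and 6.78 and 7.19 at 3xEC50. In RS4:11 it read 2.55 and 2.22 with vehicle, 2.58 and 2.43 at EC50, and 2.59 and 2.59 at 3xEC50. All 4 obatoclax arrays of SEM-K2 were high and the other 8 were low, with no overlap. The difference from vehicle was 4.04 ± 0.17 at EC50 and 4.45 ± 0.17 at 3xEC50 (log2, ± SE of limma's shared model), or at least 5.98-fold and 7.93-fold when vehicle is set at the floor. Each array value comes from a bulk extract, in which more cells with a transcript and more transcript per cell cannot be told apart.

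The other 2 KANK1 probe sets did not follow it. Probe set 237162_at ran from 2.54 to 2.57 on 11 arrays and reached 3.35 on SEM-K2 vehicle replicate 2, and 238789_at ran from 2.51 to 2.70 over all 12 arrays. Neither passed the floor on any array, so the KANK1 result rests on 1 probe set. Its suffix marks probes that may match more than 1 transcript.

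STARD13 was the member with the widest spread between replicates at 3xEC50. Probe set 213103_at read 2.80 and 2.76 in SEM-K2 with vehicle, 5.66 and 5.88 at EC50, and 6.05 and 7.46 at 3xEC50. In RS4:11 it ran from 2.21 to 2.48. The difference from vehicle was 2.98 ± 0.36 at EC50 and 3.97 ± 0.36 at 3xEC50, or at least 3.40-fold and 6.75-fold. Every obatoclax array of SEM-K2 lay above every other array.

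The second STARD13 probe set gave a smaller difference. Probe set 242686_at read 3.01 and 3.76 in SEM-K2 with vehicle, 3.74 and 4.81 at EC50, and 5.99 and 5.15 at 3xEC50, while RS4:11 ran from 2.51 to 2.77. EC50 replicate 1 stayed below the floor and lay within the vehicle pair, while EC50 replicate 2 and both 3xEC50 arrays lay above the floor and above both vehicle arrays. Its mean difference was 0.89 at EC50 and 2.18 at 3xEC50. With the mean of both probe sets in place of the brighter one, the EC50 difference of STARD13 was 1.94. The antisense transcript STARD13-AS, which has its own 2 probe sets, ran from 2.26 to 2.59 and never passed the floor.

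ENPP2 was above the floor on both of its probe sets at both doses. Probe set 209392_at read 2.89 and 3.18 in SEM-K2 with vehicle, 6.91 and 5.95 at EC50, and 7.04 and 6.66 at 3xEC50, against 2.40 to 2.87 in RS4:11. Probe set 210839_s_at read 2.36 and 2.66 with vehicle, 4.56 and 4.84 at EC50, and 5.57 and 6.02 at 3xEC50, against 2.36 to 2.39 in RS4:11. On both probe sets the 4 obatoclax arrays of SEM-K2 lay above all others.

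The ENPP2 probe sets differed in how the doses compared. The brighter probe set differed from vehicle by 3.39 ± 0.30 at EC50 and 3.82 ± 0.30 at 3xEC50, or at least 5.39-fold and 7.22-fold. The other differed by 2.19 at EC50 and 3.28 at 3xEC50, or at least 1.62-fold and 3.47-fold. The EC50 difference was thus 89.0% of the 3xEC50 difference (log2) on the first and 66.7% on the second.

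CD1A was measured by a single probe set, 210325_at. It read 2.61 and 3.19 in SEM-K2 with vehicle, 5.40 and 5.12 at EC50, and 5.80 and 6.23 at 3xEC50. In RS4:11 it ran from 2.52 to 2.62. The difference from vehicle was 2.36 ± 0.22 at EC50 and 3.12 ± 0.22 at 3xEC50, or at least 2.39-fold and 4.04-fold. The 3 SEM-K2 groups did not overlap one another, and the RS4:11 values lay close to SEM-K2 vehicle replicate 1.

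COL15A1 fell short of its label at the lower dose. Probe set 203477_at read 2.50 and 2.57 in SEM-K2 with vehicle, 2.97 and 5.13 at EC50, and 5.24 and 5.61 at 3xEC50. In RS4:11 it ran from 2.51 to 2.55. EC50 replicate 1 stayed near vehicle while EC50 replicate 2 lay near the 3xEC50 arrays, a gap of 2.16 between replicates. The difference from vehicle was 1.52 ± 0.52 at EC50, at least 1.04-fold, and 2.89 ± 0.52 at 3xEC50, at least 2.69-fold. Without EC50 replicate 1 the EC50 difference was 2.60, and without EC50 replicate 2 it was 0.44. COL15A1 therefore met the floor at 3xEC50 only, and 4 of the 5 genes met it on every array.

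**Figure D1:**
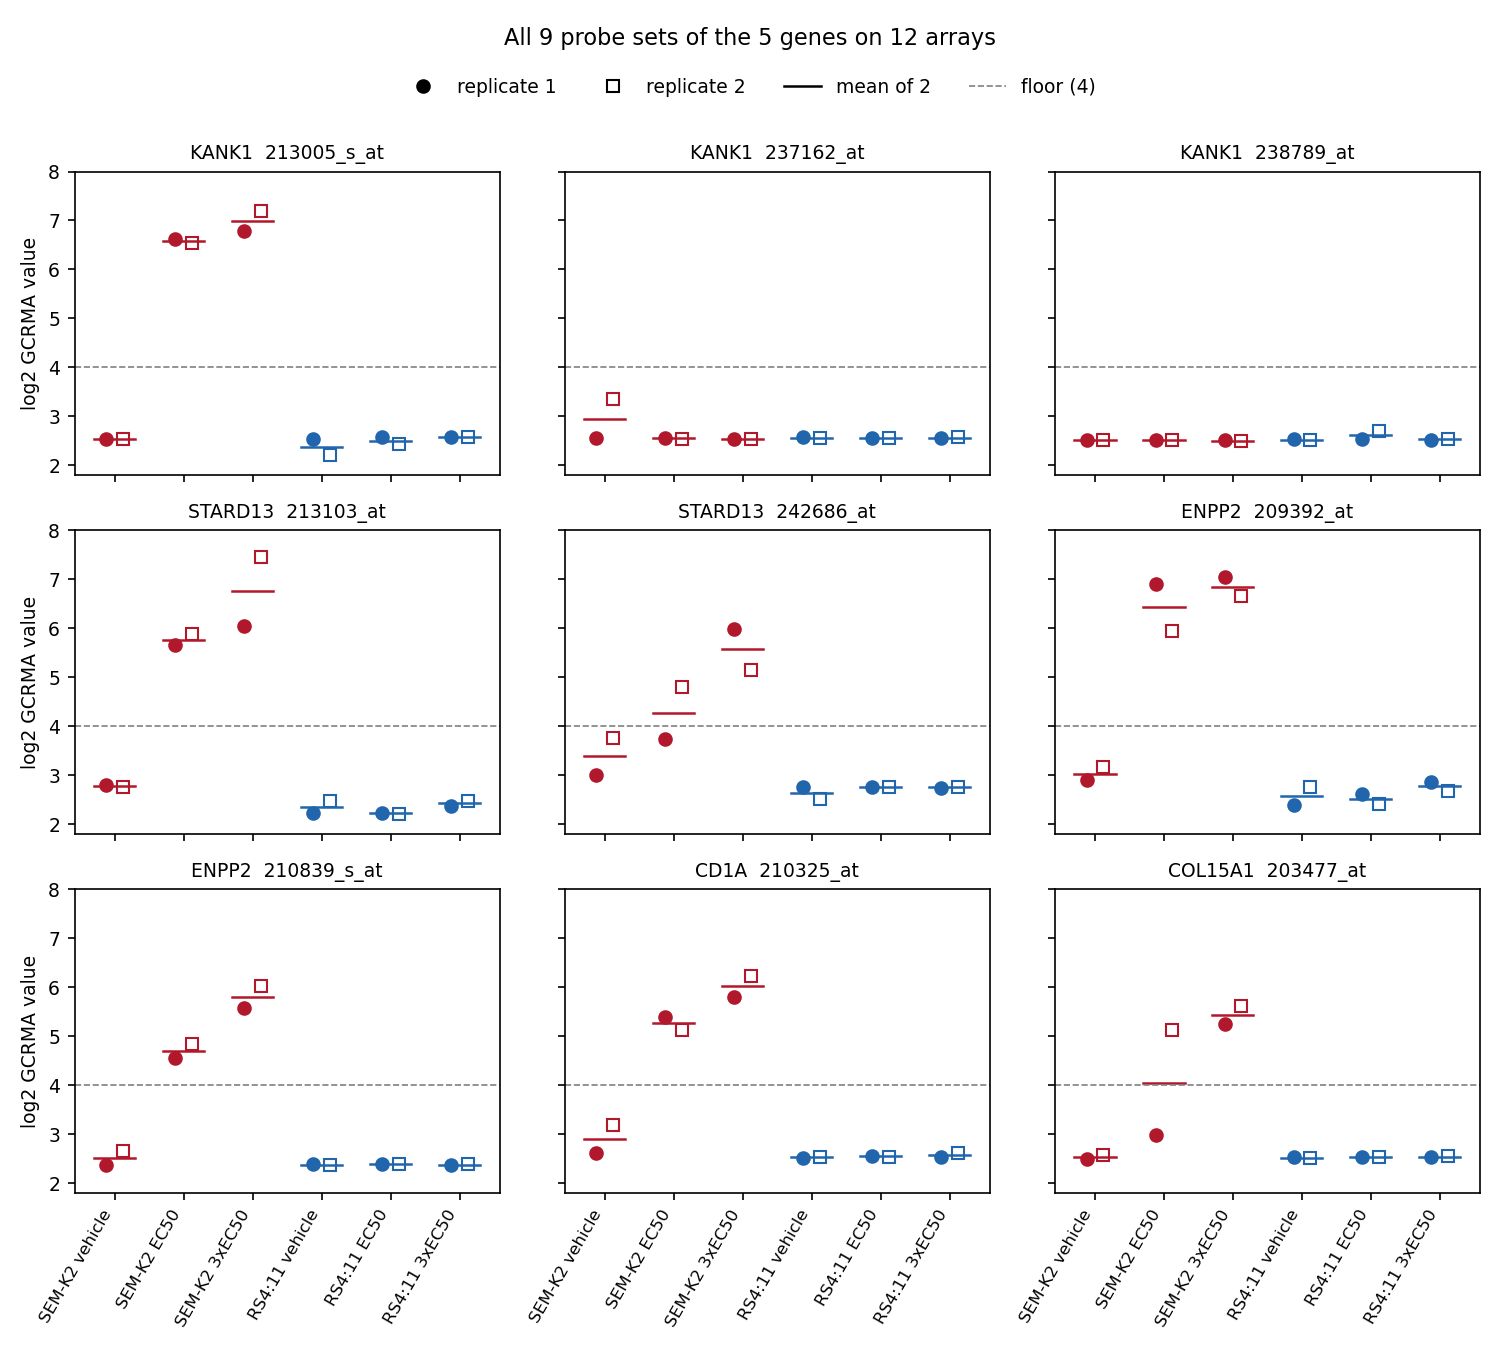
Log2 GCRMA value (y axis) of the 9 probe sets of KANK1, STARD13, ENPP2, CD1A and COL15A1 in each of 6 groups (x axis), with SEM-K2 in red and RS4:11 in blue. Circles are replicate 1, squares replicate 2, bars the mean of 2 and the dashed line the floor of 4. Of the 9 probe sets, 5 lay above the floor on all 4 SEM-K2 obatoclax arrays, and the RS4:11 values of all 9 lay between 2.21 and 2.87.

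The genes lie on different chromosomes except for KANK1 and COL15A1, which share chromosome 9 far apart. In RefSeq's annotation of the human assembly GRCh38.p14, KANK1 spans chr9:470295-746103, COL15A1 spans chr9:98943907-99070787, STARD13 spans chr13:33103137-33676794 and CD1A spans chr1:158248336-158258269. Gene length differed widely, at 573.7 kb for STARD13, 275.8 kb for KANK1, 126.9 kb for COL15A1, 116.3 kb for ENPP2 and 9.93 kb for CD1A, against a median of 31.1 kb over 9946 tested genes with a length. STARD13 was longer than 99.3% of these genes, KANK1 than 96.3%, COL15A1 than 86.9% and ENPP2 than 85.1%. CD1A alone was shorter than the median, being longer than 18.8%.

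Promoter windows are shown so that the letters around the start sites of these genes, which the rule grouped by their pattern, can be set side by side. RefSeq windows of GRCh38.p14, from 250 bases before to 50 after a start, were held for 4 of the 5 genes and came to 11, since a gene can have several starts. Which start was used in these cells was not measured. Both strands of each window were searched for an E-box CACGTG (bound by factors such as MYC and TFEB), an AP-1 motif TGANTCA and a FOXO motif GTAAACA. The E-box was in 2 of the 11 windows and in 7.26% of all 35116 windows, the AP-1 motif in 1 of 11 and in 7.71%, and the FOXO motif in 0 of 11 and in 3.42%, with no overlap between matches. The windows with a match are printed 5′ to 3′ on the gene's strand, with the match in capitals, followed by the first window of CD1A and the window of COL15A1, which had none.
KANK1 window 2, chr9:686514-686813, plus strand, E-box starting at base 21 relative to the start: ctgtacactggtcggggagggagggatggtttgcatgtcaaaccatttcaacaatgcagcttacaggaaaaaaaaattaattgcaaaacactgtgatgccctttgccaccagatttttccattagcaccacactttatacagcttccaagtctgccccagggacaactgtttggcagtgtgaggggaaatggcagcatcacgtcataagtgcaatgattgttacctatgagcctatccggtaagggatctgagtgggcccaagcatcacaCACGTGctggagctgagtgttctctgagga
STARD13 window 2, chr13:33285706-33286005, minus strand, E-box at -61: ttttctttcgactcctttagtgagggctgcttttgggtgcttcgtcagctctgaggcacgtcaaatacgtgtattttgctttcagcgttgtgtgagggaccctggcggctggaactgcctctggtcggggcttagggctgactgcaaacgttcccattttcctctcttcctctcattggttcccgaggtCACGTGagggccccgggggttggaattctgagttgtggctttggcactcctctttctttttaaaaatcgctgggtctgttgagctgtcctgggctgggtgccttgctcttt
STARD13 window 4, chr13:33186042-33186341, minus strand, AP-1 motif at -195: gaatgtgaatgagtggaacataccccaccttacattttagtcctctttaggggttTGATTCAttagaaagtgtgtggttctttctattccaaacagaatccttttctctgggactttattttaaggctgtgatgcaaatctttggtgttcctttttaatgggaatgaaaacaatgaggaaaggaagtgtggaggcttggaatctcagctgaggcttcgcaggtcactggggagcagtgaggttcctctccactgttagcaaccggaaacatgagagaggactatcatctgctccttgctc
CD1A window 1, chr1:158248086-158248385, plus strand: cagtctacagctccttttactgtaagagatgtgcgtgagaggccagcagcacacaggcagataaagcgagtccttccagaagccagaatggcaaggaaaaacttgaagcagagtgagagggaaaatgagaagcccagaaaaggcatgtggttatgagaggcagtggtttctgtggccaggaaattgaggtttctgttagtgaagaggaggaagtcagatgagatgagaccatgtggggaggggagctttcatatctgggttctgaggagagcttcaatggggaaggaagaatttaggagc
COL15A1 window 1, chr9:98943657-98943956, plus strand: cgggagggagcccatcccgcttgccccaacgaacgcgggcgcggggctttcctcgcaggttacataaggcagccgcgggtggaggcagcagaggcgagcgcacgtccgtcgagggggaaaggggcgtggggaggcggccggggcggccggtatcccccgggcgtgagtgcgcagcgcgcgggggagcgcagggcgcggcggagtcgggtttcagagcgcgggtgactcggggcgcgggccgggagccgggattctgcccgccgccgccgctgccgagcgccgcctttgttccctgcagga
The COL15A1 window was the richest in G and C of the 11, at 76.0%. The windows of KANK1 held 43.3% to 67.0%, those of STARD13 43.7% to 53.3% and those of CD1A 42.0% and 48.7%, against a median of 58.7% over all windows. None of these 3 motifs was held by all 4 genes, and a match or its absence describes only the letters of these windows.

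The floor that defined the group was also applied to all 19775 genes, 1 probe set for each. It was met on all 12 arrays by 10 genes, or 0.0506%, and 4 of these are KANK1, STARD13, ENPP2 and CD1A. The other 6 were CD300LF, an inhibitory receptor of myeloid cells, TNFRSF14, the HVEM receptor, the homeobox gene IRX5, the magnesium transport gene CNNM4, TESMIN and the long noncoding RNA FOXD2-AS1. The lowest SEM-K2 obatoclax array exceeded the highest of the other 8 arrays by at least 1.93 in the 4 members, and by 0.17 to 1.12 in the 6 others, with CD300LF at the top of that range. Just inside the floor, the lowest obatoclax array read 4.03 for TESMIN and 4.11 for IRX5. Just outside it, NPY, which encodes a neuropeptide, had its lowest obatoclax array at 3.96 and CMTM8 at 3.92.

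How many genes met the floor depended on its height and on single arrays. At a floor of 3 it was met by 5 genes, among them KANK1 and STARD13, and at a floor of 5 by 7 genes, among them KANK1, STARD13, ENPP2 and CD1A. With group means in place of single arrays 42 genes met it, all 5 members included. Leaving out SEM-K2 vehicle replicate 1 raised the count to 25. The mirrored pattern, above the floor only with obatoclax in RS4:11, was met by 3 genes, namely CD99P1, TP53INP1 and ULK2. The opposite pattern, above the floor only in SEM-K2 with vehicle, was also met by 3 genes.

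**Figure D2:**
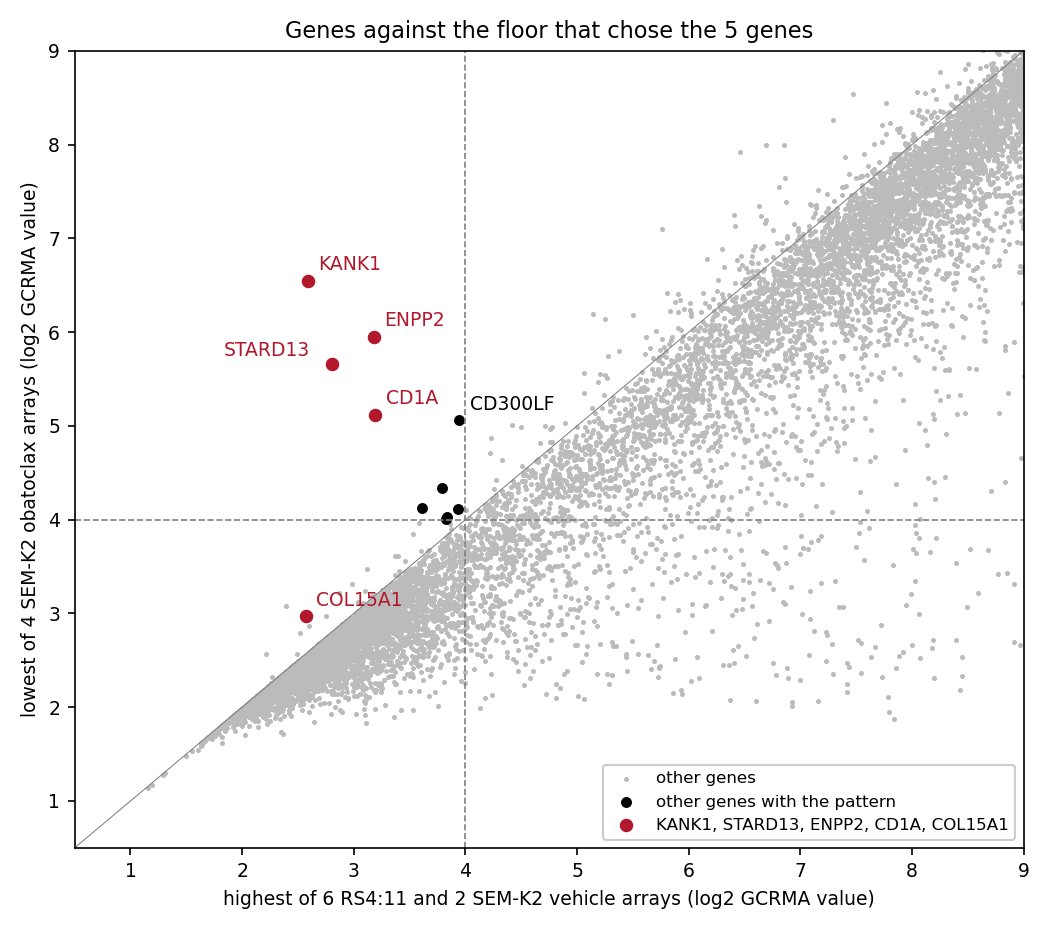
Each of 19775 genes by its highest value over the 6 RS4:11 and 2 SEM-K2 vehicle arrays (x axis, log2) and its lowest value over the 4 SEM-K2 obatoclax arrays (y axis, log2). Dashed lines mark the floor of 4, the solid line marks equality, and axes stop at 9. The upper left corner holds KANK1, ENPP2, STARD13 and CD1A with 6 other genes, of which CD300LF is named, and COL15A1 lies below the floor through its EC50 replicate 1 at 2.97.

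The counts of calls at each dose give the scale for these differences, and for the members they are a description, since the rule used the same contrasts. At EC50, 4 of the 5 members (not COL15A1) were among the genes that limma called higher in SEM-K2 than with vehicle, at a Benjamini-Hochberg adjusted p under 0.05, where 0.114% of 10561 tested genes were called higher and 0.0568% lower. At 3xEC50 all 5 were, where 0.625% of genes were called higher and 0.199% lower. The median difference of the 5 members was 2.98 at EC50 and 3.82 at 3xEC50, against 0.05 and 0.06 over all tested genes.

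The number of genes called over the whole table depended on single arrays and on the pairing of replicates. Same-numbered replicates deviated together, and with the replicate number as a block 46 genes were called at EC50 and 220 at 3xEC50, against 18 and 87 without it. At 3xEC50 the count was 13 without SEM-K2 vehicle replicate 2, 15 without 3xEC50 replicate 2, 168 without vehicle replicate 1, 148 without 3xEC50 replicate 1, and between 39 and 55 without any 1 of the other 8 arrays. At EC50 the count lay between 7 and 17 for 10 of the 12 arrays left out singly, and leaving out EC50 replicate 2 or vehicle replicate 2 gave 3 and 4 calls. Without any array left out, 66 genes were called higher at 3xEC50.

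Of these 66 genes, 13 had a vehicle mean below the floor. In 10 of the 13, all RS4:11 group means were below it too. Besides the 5 members these were CD300LF, DDIT4L, DNAJB5, NPY and SETBP1, named here after their values were seen.

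The step between the doses was not part of the rule, although the same obatoclax arrays chose the members and genes with large differences at 3xEC50 favour a positive step. The steps are therefore no independent evidence of a dose response. KANK1 was higher at 3xEC50 than at EC50 by 0.41 ± 0.17 on the log2 scale, ENPP2 by 0.42 ± 0.30, CD1A by 0.76 ± 0.22, STARD13 by 0.99 ± 0.36 and COL15A1 by 1.38 ± 0.52. None passed the test, with an adjusted p of 1.00 for each (limma, Benjamini-Hochberg), and 0.0% of the 10561 genes were called in this contrast. Leaving out EC50 replicate 2 gave 1 call over the table and leaving out 3xEC50 replicate 1 gave 34. At an unadjusted p under 0.05 (limma) there were 234 genes. The 4 members among them, all but ENPP2, are a description, since the same arrays chose them. These steps are those of the brightest probe sets. The second ENPP2 probe set, 210839_s_at, was higher at 3xEC50 by 1.09 and the second STARD13 probe set by 1.29. The further KANK1 probe sets, below the floor on every array, differed by -0.01 each.

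Single arrays decided some of these steps. The step of COL15A1 was 0.30 without EC50 replicate 1 and 2.46 without EC50 replicate 2, and that of ENPP2 turned to -0.060 without EC50 replicate 2. The step of STARD13 was 1.69 without 3xEC50 replicate 1 and 0.28 without 3xEC50 replicate 2, and that of KANK1 was 0.20 without 3xEC50 replicate 2. In each of these fits a group was left with 1 array, which is assumed to vary like the other groups. Only the sizes of the steps are therefore given. Expressed as a share of the 3xEC50 difference (log2), the EC50 difference was 90.9% in KANK1, 89.0% in ENPP2, 75.7% in CD1A, 75.1% in STARD13 and 52.5% in COL15A1. These are the brightest probe sets. The second STARD13 probe set gave 40.7% and the second ENPP2 probe set 66.7%. The COL15A1 share rests on EC50 replicate 1, without which its EC50 difference was 2.60.

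**Figure D3:**
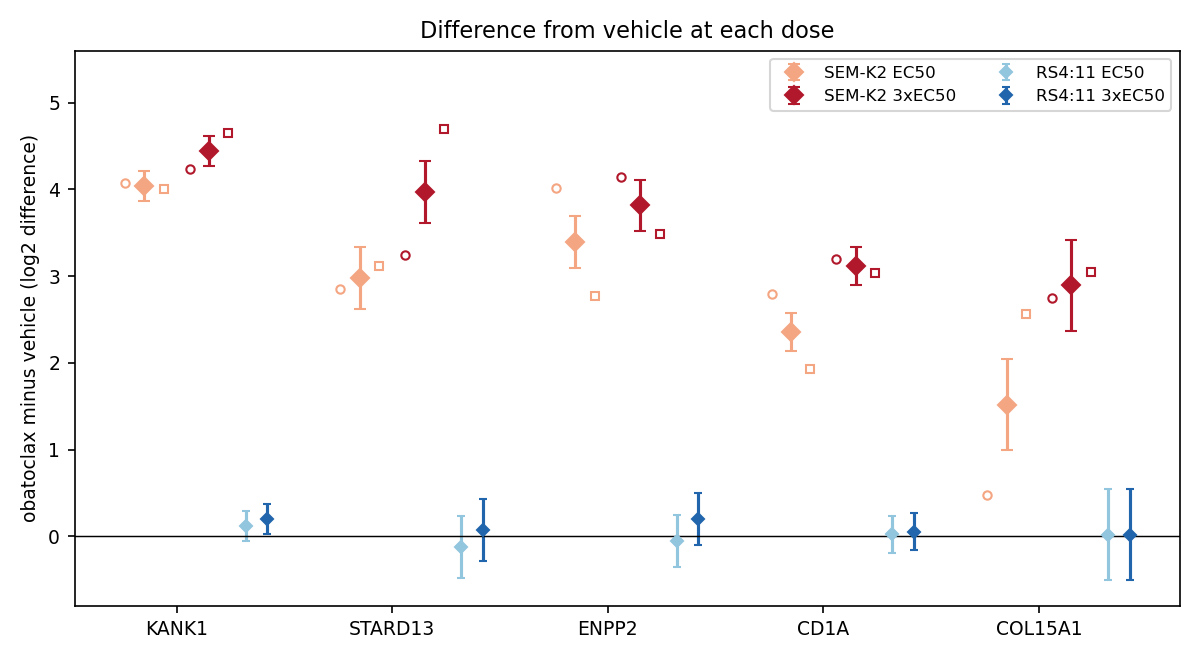
Obatoclax minus vehicle (y axis, log2 difference) for the 5 genes (x axis), at EC50 (light) and 3xEC50 (dark), in SEM-K2 (red) and RS4:11 (blue). Diamonds with bars are the difference ± SE of the limma fit, open circles and squares the same-numbered replicate differences in SEM-K2. The SEM-K2 differences run from 1.52 to 4.45 and the RS4:11 differences from -0.13 to 0.20.

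A sign of RNA quality set 1 array of the higher dose apart. For the actin gene ACTB, the 3' control probe set exceeded the 5' one by 1.97 (log2) on SEM-K2 3xEC50 replicate 2, against 0.87 to 1.23 on the other 11 arrays, and for GAPDH by 0.61 against 0.08 to 0.30. On the brightest probe sets this array held the highest value of KANK1, STARD13, CD1A and COL15A1. It also held that of the second ENPP2 probe set (6.02). The second STARD13 probe set was highest on 3xEC50 replicate 1, at 5.99 against 5.15. Without 3xEC50 replicate 2 the 3xEC50 difference from vehicle was 4.24 in KANK1, 3.27 in STARD13, 4.01 in ENPP2, 2.90 in CD1A and 2.71 in COL15A1. The floor was then met by 13 genes, 4 of the members among them.

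In RS4:11 none of the 5 genes lay above the floor on any array. The difference from vehicle ran from -0.13 to 0.12 at EC50, and at 3xEC50 it was 0.20 ± 0.17 in KANK1, 0.08 ± 0.36 in STARD13, 0.20 ± 0.30 in ENPP2, 0.06 ± 0.22 in CD1A and 0.02 ± 0.52 in COL15A1. No gene of the whole table was called in RS4:11, 0.0% at EC50 and 0.0% at 3xEC50 by limma, although 444 and 518 genes had an unadjusted p under 0.05. All of these member values lie below the floor, where GCRMA values are compressed. The difference of the responses, SEM-K2 minus RS4:11, was 4.24 ± 0.25 in KANK1, 3.89 ± 0.51 in STARD13, 3.62 ± 0.42 in ENPP2, 3.06 ± 0.31 in CD1A and 2.88 ± 0.74 in COL15A1 at 3xEC50.

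That difference between the lines is also fixed by the rule and is not a test of these genes. Over the table it was called for 4 genes at 3xEC50, 0.0379% of those tested, which were KANK1, ENPP2, CD1A and the homeobox gene DLX2, and for KANK1 alone at EC50, 0.00947%. DLX2 went the other way, with a response lower in SEM-K2 than in RS4:11 by 2.18 ± 0.22.

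Likeness of profile was measured as Pearson's r over the 12 arrays against every tested gene. The rule selected on the split between SEM-K2 obatoclax arrays and the other 8, so high values between members follow from it and are a description only. The nearest 3 genes to KANK1 were CD1A (0.988), ENPP2 (0.985) and STARD13 (0.983), and the nearest to CD1A were STARD13 (0.989), KANK1 and ENPP2. For ENPP2 they were CD1A (0.986), KANK1 and STARD13 (0.967), and for STARD13 they were CD1A, KANK1 and the non-member CD300LF (0.973), with ENPP2 at rank 5. Within the 6 SEM-K2 arrays alone, r between KANK1 and CD1A was 0.979 and that between STARD13 and CD300LF was 0.993.

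COL15A1 had other neighbours in profile. Its nearest 3 were NIBAN1 (0.973), GPR84 (0.950), a receptor for medium-chain fatty acids, and ZCCHC24 (0.941), while STARD13 ranked 8, CD1A 17, KANK1 22 and ENPP2 65. NIBAN1 was 1.82 ± 0.44 higher at 3xEC50 than with vehicle in SEM-K2 (limma, Benjamini-Hochberg adjusted p = 0.139), so it did not pass the test. ABHD17C, a depalmitoylating enzyme gene, ranked 4 for KANK1, STARD13 and CD1A and was called at 1.75 ± 0.22 (limma adjusted p = 0.00901). It is named here after its values were seen.

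The closest relatives of the 5 genes were mostly below the floor throughout. Of 15 measured relatives, 13 never passed it, the highest value among them being 3.98 for KANK3. They include KANK4, a relative of KANK1, and DLC1 and STARD8, which are of the same protein family as STARD13. They also include the ectoenzyme genes ENPP1, ENPP3, ENPP5 and ENPP6 and the other CD1 genes CD1B, CD1C, CD1D and CD1E. The last is COL18A1, the other collagen of the multiplexin class. CD1B, CD1C, CD1D and CD1E lie beside CD1A on chromosome 1, with the nearest, CD1B, 27.1 kb away, and ran from 2.16 to 3.42 over all arrays. The 2 relatives above the floor were KANK2, on all 12 arrays, which differed from vehicle by 0.14 at 3xEC50 (limma adjusted p = 0.896), and ENPP4, on the 6 SEM-K2 arrays, which differed by 0.35 (adjusted p = 0.545). Neither passed the test.

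Partners of KANK1, ENPP2, CD1A and COL15A1 were followed as 4 lists of 88 further genes, 44 of them tested. In SEM-K2 at 3xEC50, 1 of the 44 rose and 2 fell (limma, Benjamini-Hochberg adjusted p under 0.05 over all genes), where 0.625% of all tested genes were called higher and 0.199% lower. At that dose 10 of the 44 had an unadjusted p under 0.05, as had 1233 of all 10561 genes. At EC50 none passed, while 4 had an unadjusted p under 0.05, as had 578 of all 10561 genes. The median difference of the 44 genes was 0.11 at EC50 and 0.16 at 3xEC50, against 0.05 and 0.06 over all tested genes. With the replicate number as a block, 3 rose and 2 fell at 3xEC50, with the lipid transfer gene NPC2 and the basement membrane gene FBLN1 added, and at EC50 DAAM1 fell. Over all 10561 genes the blocked fit called 164 higher and 56 lower at 3xEC50, and 33 higher and 13 lower at EC50. In RS4:11 none of the 44 passed at either dose by limma, while 6 at EC50 and 3 at 3xEC50 had an unadjusted p under 0.05, as had 444 and 518 of all genes.

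KIF21A, which encodes a kinesin that KANK1 recruits to the cortex, fell in SEM-K2. It read 8.75 and 9.23 with vehicle, 8.17 and 8.19 at EC50, and 7.70 and 7.67 at 3xEC50, and its RS4:11 values, 2.99 to 3.58, never reached the floor. The 3 groups did not overlap in SEM-K2. The difference at 3xEC50 was -1.30 ± 0.21 (limma adjusted p = 0.0274), and its second probe set differed by -1.59. KIF21A kept the call in 3 of the 12 fits that left out 1 array.

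DAAM1, a formin that acts in actin assembly, also fell. It read 7.41 and 7.48 with vehicle, 6.75 and 6.62 at EC50, and 6.60 and 6.68 at 3xEC50 in SEM-K2, a difference of -0.81 ± 0.13 at 3xEC50 (adjusted p = 0.0269, limma). In RS4:11 it read 6.94 and 6.89 with vehicle, 6.39 and 6.35 at EC50, and 6.37 and 6.44 at 3xEC50, lower with drug in every array but not called at 3xEC50 (adjusted p = 0.548). DAAM1 kept the SEM-K2 call in 1 of the 12 fits that left out 1 array and lost it with the mean of its probe sets, at -0.44 (adjusted p = 0.208).

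GM2A, which encodes a lysosomal activator that lifts glycolipids out of membranes and loads them onto CD1 molecules, rose in SEM-K2. It read 8.15 and 7.51 with vehicle, 8.75 and 8.52 at EC50, and 9.08 and 9.23 at 3xEC50, a difference of 1.32 ± 0.23 at 3xEC50 (adjusted p = 0.0410, limma). In RS4:11 it read 8.18 and 8.37 with vehicle, 8.97 and 9.42 at EC50, and 9.22 and 9.11 at 3xEC50, higher with drug on every array but not called at 3xEC50 (0.89 ± 0.23, adjusted p = 0.560). The difference between the lines in this response was 0.43 ± 0.33 (limma adjusted p = 1.00). Its probe sets disagreed at 3xEC50, where 35820_at differed by 1.34, 235678_at by 0.66, 209727_at by 0.50, 215891_s_at by 0.42 and 33646_g_at by -0.17. Probe sets 33646_g_at, 215891_s_at and 209727_at read 6.56, 6.88 and 6.76 on 3xEC50 replicate 1, but 3.00, 4.68 and 4.27 on replicate 2. At EC50 they differed from vehicle by 0.98, 1.01 and 1.28, against 0.86 for 35820_at and 1.05 for 235678_at. Probe set 215890_at stayed below the floor. The low values on 3xEC50 replicate 2 enter the mean of the probe sets. They were read on the array whose ACTB and GAPDH controls stood apart, and their part in the result was not tested. With the mean of the probe sets the difference was 0.58 (adjusted p = 0.582), and the call was kept in 1 of the 12 fits that left out 1 array.

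No other list gene passed the test. The 9 tested genes of the ENPP and lysophosphatidate list had a median difference of 0.35 at 3xEC50, the 8 of the CD1 and lipid loading list 0.45, the 14 of the basement membrane list 0.09 and the 13 of the KANK list 0.14. These medians describe genes that passed the filter on low values and were not tested as lists.

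**Figure D4:**
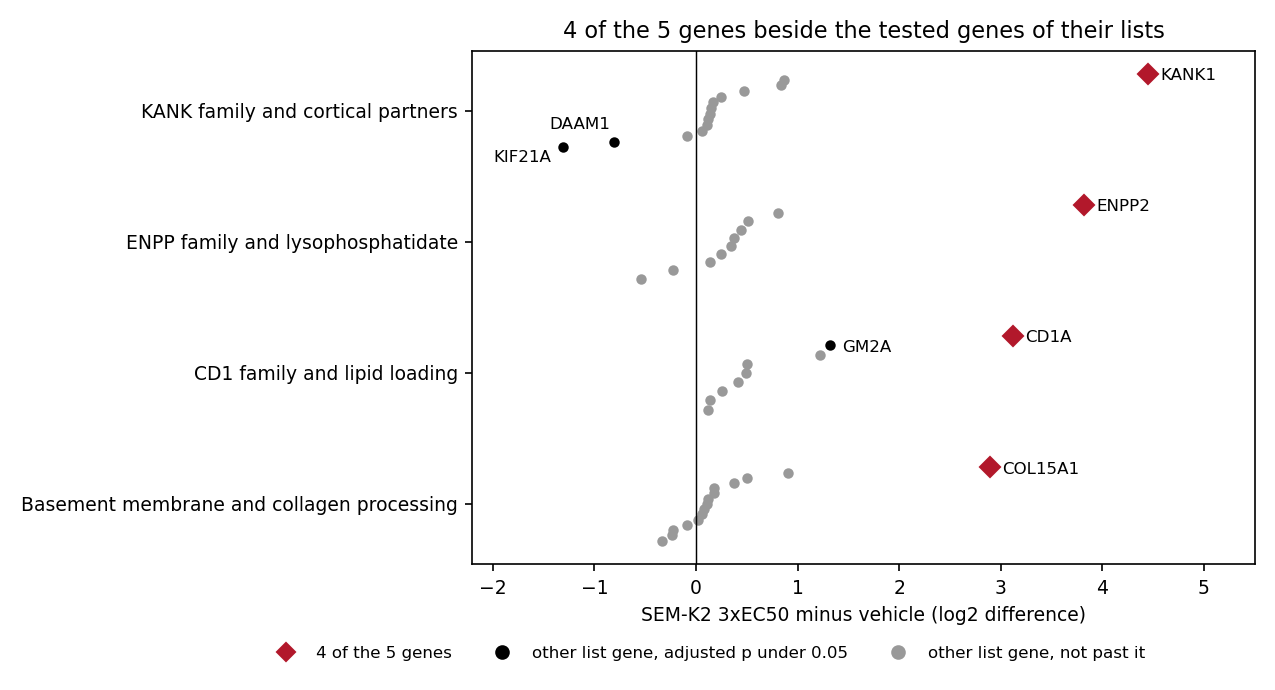
SEM-K2 3xEC50 minus vehicle (x axis, log2 difference) for the tested genes of the 4 pathway lists (rows), with KANK1, ENPP2, CD1A and COL15A1 as red diamonds, other genes past an adjusted p of 0.05 in black and the remaining genes in grey. These 4 genes lie between 2.89 and 4.45, GM2A lies at 1.32, and KIF21A and DAAM1 lie at -1.30 and -0.81.

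Genes next to the members on the chromosome did not pass the test. Of 32 protein-coding genes that overlap a member or are among the nearest 3 on each side, 25 had a named probe set and 11 were tested. None was called at either dose by limma, where 18 of all 10561 genes were called at EC50 and 87 at 3xEC50. At each dose 1 neighbour had an unadjusted p under 0.05, as had 578 of all genes at EC50 and 1233 at 3xEC50. At 3xEC50 that gene was TGFBR1, the type I receptor of TGF-β, 32.9 kb from COL15A1, which read 9.39 and 9.42 in SEM-K2 with vehicle, 10.00 and 9.85 at EC50, and 10.20 and 10.23 at 3xEC50, a difference of 0.82 ± 0.23 (adjusted p = 0.204). The largest difference among the neighbours was that of KIRREL1, an adhesion gene 148.1 kb from CD1A, which read 2.85 and 2.51 with vehicle, 4.02 and 2.77 at EC50, and 3.01 and 4.08 at 3xEC50 in SEM-K2, and 2.48 to 2.52 in RS4:11. It passed the floor on 1 array of each dose, and its difference at 3xEC50 was 0.86 ± 0.41 (adjusted p = 0.462). It is named here after its values were seen. DOCK8, 5.04 kb from KANK1, differed by 0.20 ± 0.16 (adjusted p = 0.685).

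Markers of cell types in which CD1A or COL15A1 is usual were followed on the same arrays. A mean level here is the average over a list's markers on 1 array, and its range is over the 2 arrays of a group. Of 7 measured Langerhans and dendritic cell markers, 0 passed the floor in any group. Their mean level was 2.59 to 2.85 in SEM-K2 at 3xEC50 and 2.59 to 2.64 with vehicle. Of 10 T lineage markers, 2 passed it (PTCRA and LCK), with a mean level of 3.21 to 3.22 at 3xEC50 and 3.14 to 3.23 with vehicle, while CD3D, CD3E and CD3G stayed below it. Of 8 fibroblast markers, 2 passed (COL1A1 and PDGFRB), and of 7 endothelial markers, 2 passed in SEM-K2 (PECAM1 and ERG). Of 6 macrophage markers, CSF1R alone passed. Of 9 B cell precursor markers, 7 passed in SEM-K2 and 8 in RS4:11. Of the 15 markers tested, limma called none at either dose in SEM-K2, and 1 at EC50 and 3 at 3xEC50 had an unadjusted p under 0.05. Of all 10561 genes, 18 were called at EC50 and 87 at 3xEC50, and 578 and 1233 had an unadjusted p under 0.05. PDGFRB fell at 3xEC50 (-1.12) in the fit with the replicate block, where 56 of 10561 genes were called lower. The part of these markers in the members' values was not tested.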

How the data were processed

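RNA of 12 samples was hybridised to Affymetrix U133 Plus 2 arrays. The authors deposited 1 value per probe set, made with GCRMA according to the submitters' processing notes. The deposited values carry no stated scale and were read as log2 from their range. Probe sets were named from the platform annotation, 41091 of 54675 having 1 symbol. Control probe sets were left out. A gene was represented by its brightest probe set, by the mean of all 12 arrays, and genes above 4 on the log2 scale in at least 2 arrays were tested, 10561 of 19775.

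One limma model (lmFit and eBayes, limma 3.58.1, run in R 4.3.3; files were read with data.table (1.17.8)) was fitted to 6 groups, leaving 6 residual degrees of freedom plus 3.27 from the prior. Benjamini-Hochberg adjustment ran over all genes of a contrast, with calls at an adjusted p under 0.05. Folds against a group below the floor were computed from 4 and are lower bounds. RS4:11 arrays below the floor vary little and enter the shared spread, so p-values of such genes may be too small. No count or depth lies behind a value, and precision is limited by the number of arrays. On simulated data for SEM-K2 3xEC50 minus vehicle over 10561 genes, the fit recovered 46% of changes of 1, 94% of 2, 98% of 3 and 100% of 4 (log2), with 8 false calls of 177. The simulated noise was normal and independent for each gene and array. It held no deviation shared by same-numbered replicates and no compression below the floor, so these rates may not hold for the real arrays.

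Replicate numbers come from the sample titles. Deviations of same-numbered arrays from their group means correlated above 0.1 in 15 of 15 pairs of groups (0.19 to 0.60, median 0.35). A fit with the replicate number as a block was therefore run beside the main fit. The main fit has no block, so its SEs, p-values and call counts leave this pairing out. Blocked values are given where they change a call or a count. Alternatives were the block, the mean over a gene's probe sets, every probe set, no filter, a floor of 5, eBayes with trend and robust, only 1 line's arrays, median centring and leaving out each array.

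The members, lists, markers and tests were chosen with earlier results of these data known. One further gene list is not reported here. The text names the 5 members, their closest relatives, list genes called in SEM-K2, genes that met the floor rule and the 3 genes with the most similar profile per member. Promoters and positions are RefSeq's for GRCh38.p14. Figures were drawn with matplotlib 3.10.9.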

Additional observations from a re-analysis of the deposited data

How the results depend on the processing

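With 2 replicates per group the number of calls moved with the setting. The sign of the members' differences from vehicle is fixed by the rule that chose them. KANK1 had no value with the mean over its probe sets, since that mean did not pass the filter on low values. For SEM-K2 3xEC50 minus vehicle, 87 genes were called, 220 with the replicate block, 44 with the mean over probe sets of a gene, 10 with only the 6 SEM-K2 arrays, and 13 to 168 when 1 array was left out. For SEM-K2 EC50 minus vehicle, 18 genes were called, 46 with the replicate block, 11 with the mean of probe sets, 8 without the filter, 1 with only the SEM-K2 arrays, and 3 to 17 when 1 array was left out. For 3xEC50 minus EC50 in SEM-K2, 0 genes were called, 3 without the filter and 0 to 34 when 1 array was left out. For RS4:11 at 3xEC50, 0 were called, 1 with the mean of probe sets, 4 with every probe set fitted separately and 0 to 1 when 1 array was left out. For RS4:11 at EC50 the counts were 0, then 1, 3 and, without the filter, 2, with 0 to 1 when 1 array was left out. The floor was met by 10 genes, by 5 at a floor of 3, by 42 with group means, by 16 with every probe set counted or with their mean, and by 10 to 25 when 1 array was left out. The ENPP2 dose step (0.42) ran from -0.060 to 0.90 when 1 array was left out, the lowest value being a reversal without SEM-K2 EC50 replicate 2. The cause of these shifts was not tested. Some of the settings leave fewer samples or a different number of genes. The signal of the members in vehicle and in RS4:11 lay below the floor, which limits what can be said of their lower level.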
